A study of Mus musculus with 34 samples.

Results

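Reactive astrocytes are astrocytes that have answered injury, infection or protein deposits by changing their form and their gene expression, and the genes followed here are 10 in common use as their markers: Gfap, Vim, Serpina3n, Osmr, Lcn2, Steap4, S1pr3, Timp1, Cd44 and Cp. They were taken by name from a count table of 55385 mouse genes, and each of the 10 names matched 1 row. The table covers the cerebral cortex of 34 mice aged 6 months. They fall into 8 groups made of 4 genotypes and 2 treatments. Wild-type mice were C57BL/6J. Dp16 mice carry an extra copy of a segment of chromosome 16 that matches much of human chromosome 21 and serve as a model of Down syndrome. 5xFAD mice carry mutant human amyloid precursor protein and presenilin transgenes under the neuronal Thy1 promoter and deposit amyloid, and 5xFAD-Dp16 mice carry both alterations. Each genotype received either the JAK inhibitor tofacitinib at 15 mg/kg or, as sham, the 0.5% methylcellulose vehicle, by gavage once a day over 1 month, so every mouse was gavaged. The libraries number 5 for wild-type sham, 5 for wild-type tofacitinib, 3 for Dp16 sham, 5 for Dp16 tofacitinib, 4 for 5xFAD sham, 5 for 5xFAD tofacitinib, 3 for 5xFAD-Dp16 sham and 4 for 5xFAD-Dp16 tofacitinib. They come from 16 females and 18 males, spread unevenly over the groups. In 5xFAD sham 1 of 4 mice was female, and in Dp16 sham 2 of 3. Group means and SDs given below are not adjusted for sex. Total gene counts ran from 16029841 to 21388650 per library. In 2 groups, 5xFAD under tofacitinib and 5xFAD-Dp16 under sham, 1 mouse that the design lists was not analysed here.

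In reactive astrocytes the cytokines of the interleukin 6 family bind receptors that share the signal chain gp130, the JAK kinases then phosphorylate STAT3, and STAT3 enters the nucleus and raises transcription of many genes, Gfap, Serpina3n and Osmr among them. Tofacitinib blocks JAK kinases, and the study asks what it does to mice with either or both alterations. In amyloid models, reactive astrocytes gather around plaques together with microglia that have switched on their own plaque program. Astrocytes of the healthy hippocampus hold far more GFAP than those of the healthy grey matter of the cortex. Hippocampal marker genes stood high in some of these libraries, and the part of tissue makeup in the Gfap level was not tested.

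The promoters of 3 members are shown because their genes recur in the results: Gfap and Serpina3n had the smallest p among the 10 when 5xFAD carriers were set against non-carriers, and Steap4 was the member whose window held a STAT motif. Each window is the 250 bases before the start of the gene, 5′ to 3′ on the gene's strand, from RefSeq on GRCm38.p6, and capitals mark a match to the STAT motif TTCNNNGAA or the AP-1 motif TGANTCA.
Gfap: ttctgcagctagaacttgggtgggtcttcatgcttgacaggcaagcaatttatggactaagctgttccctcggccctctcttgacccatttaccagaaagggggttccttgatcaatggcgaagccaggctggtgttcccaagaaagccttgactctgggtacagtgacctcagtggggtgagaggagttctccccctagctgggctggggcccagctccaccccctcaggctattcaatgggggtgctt
Serpina3n: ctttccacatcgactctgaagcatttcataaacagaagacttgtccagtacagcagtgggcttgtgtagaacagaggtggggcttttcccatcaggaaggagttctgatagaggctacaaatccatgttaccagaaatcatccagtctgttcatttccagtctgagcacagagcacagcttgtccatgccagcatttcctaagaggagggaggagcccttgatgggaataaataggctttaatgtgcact
Steap4: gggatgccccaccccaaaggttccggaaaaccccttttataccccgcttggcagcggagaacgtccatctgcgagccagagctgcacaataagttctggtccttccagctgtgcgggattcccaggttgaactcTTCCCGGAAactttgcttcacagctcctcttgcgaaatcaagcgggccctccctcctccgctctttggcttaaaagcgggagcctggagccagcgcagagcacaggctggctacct

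The Gfap window lies at chr11:102897201-102897450 on the minus strand, the Serpina3n window at chr12:104406458-104406707 on the plus strand and the Steap4 window at chr5:7960222-7960471 on the plus strand. Both strands were searched in the windows of all 10 members, all of which RefSeq lists. The STAT motif matched in 1 member, at position -116 of Steap4 counted from the gene start, against 7.01% of 32817 windows of the same length across the genome. AP-1 matched in 1 member, Cp, at position -177 of 1 of its start sites, against 6.75% of windows. The TATA box letters TATAAA matched in Vim at -32, in Cp at -25 of 1 start site and in Steap4 at -215 on the opposite strand, against 12.4% of windows. A CCAAT box (CCAAT) matched in Vim, Cp and Timp1 against 33.8%. The Gfap window ends at the start RefSeq gives, which lies inside the longer gene of the GENCODE annotation. A match describes letters only, and sites outside these windows were not searched.

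Some libraries stood apart, and this touches the members. The mean log2 level of 14 hippocampal marker genes, relative to wild-type sham, was 2.09 in wild-type tofacitinib 3, 1.57 in 5xFAD tofacitinib 2 and 1.36 in 5xFAD-Dp16 sham 4, and the other 31 libraries ran from -0.62 to 0.57. The dentate gyrus gene C1ql2 stood at 32.4, 28.9 and 17.2 CPM (counts normalised for the total of the library) in these 3 libraries and between 1.07 and 5.66 CPM in the others. Not all of the 14 stood apart in this way. Trpc6 had 9.50, 5.61 and 8.32 CPM in the 3, against 3.77 to 10.4 CPM in the other 31 libraries. Stxbp6 had 61.9, 51.2 and 84.3 CPM, against 50.8 to 84.8 CPM. In 5xFAD tofacitinib 2 the cortical markers were also the lowest of all libraries (mean log2 -1.81), and its choroid plexus, oligodendrocyte and meningeal fibroblast markers were the highest (3.30, 0.75 and 1.40). Defining astrocyte genes were present throughout: the 16 homeostatic astrocyte markers summed to between 10108.5 and 13919.9 CPM per library, and their mean log2 level stayed between -0.17 and 0.28. Single markers went both ways in 5xFAD tofacitinib 2: the glutamate transporter gene Slc1a2 stood at 2235 CPM, below the lowest of the 31 libraries at 2999 CPM, and the water channel gene Aqp4 at 234 CPM, above their highest at 152 CPM. Where leaving out the 3 libraries changes a result named below, the value without them is given, and the part that tissue makeup plays in any member's level was not tested.

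Per kilobase of gene length, Gfap was the most abundant member, with a mean RPKM of 56.3 over the 34 libraries. Vim followed at 15.5 RPKM, Serpina3n at 5.42, Cp at 2.40, S1pr3 at 1.78, Osmr at 0.770, Cd44 at 0.495, Lcn2 at 0.252, Timp1 at 0.246 and Steap4 at 0.122. The last 3 rested on few reads: no library had more than 16 counts of Lcn2, 16 of Timp1 or 14 of Steap4, and 9, 9 and 3 libraries had 0, which allows up to 3 counts, or 0.140 to 0.187 CPM depending on the library's total. Levels from here on are in CPM on scaled library totals. In bulk tissue, fewer cells of a type and less RNA per cell cannot be told apart.

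**Figure D1:**
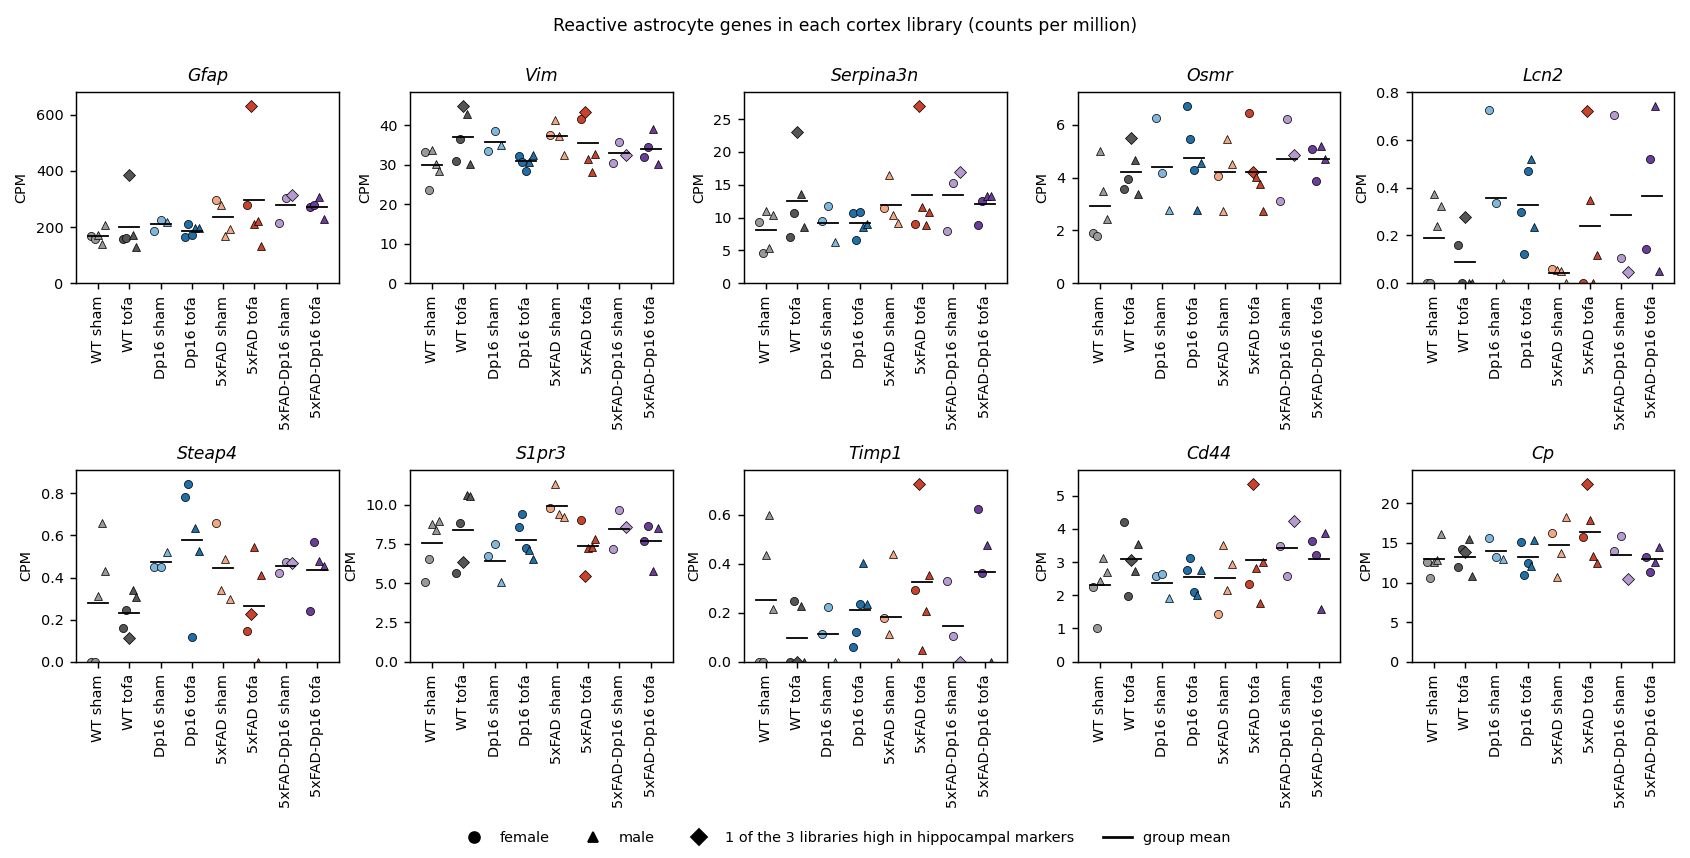
CPM of each member (vertical axes, starting at 0) in every library, by group; horizontal bars are group means, circles females, triangles males and diamonds the 3 libraries high in hippocampal markers. The highest Gfap and Serpina3n values, 632 and 27.0 CPM, both belong to 5xFAD tofacitinib 2, and Lcn2, Timp1 and Steap4 stay below 1 CPM in every library.

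The clearest movement among the 10 members was that of Gfap with the 5xFAD transgenes. It averaged 271 ± 110.1 CPM (SD, n = 16) in mice that carry them and 190.1 ± 55.9 CPM (SD, n = 18) in mice that do not. In the fit over all 34 libraries, with equal weight for Dp16 status and treatment, Gfap was 1.40-fold higher and Serpina3n 1.31-fold higher in carriers, and neither passed the threshold, an edgeR quasi-likelihood p adjusted over 17632 genes under 0.05 (adjusted p = 0.109 and 0.196). Gfap passed once the 3 libraries high in hippocampal markers were left out, at 1.36-fold (adjusted p = 0.0326).

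Gfap encodes the glial fibrillary acidic protein, the intermediate filament by which reactive astrocytes are usually recognised (chr11:102887336-102900912, minus strand, GRCm38). In wild-type sham its levels were 167, 158, 172, 140.5 and 208 CPM, and in wild-type tofacitinib 159, 162, 387, 172 and 129 CPM. Dp16 sham gave 185, 226 and 219.6 CPM and Dp16 tofacitinib 163, 212, 171, 196 and 196 CPM. Among these 18 mice without the transgenes, 1 library exceeded the 226 CPM of a Dp16 sham mouse, wild-type tofacitinib 3, which is the library highest in hippocampal markers. The 5xFAD sham mice had 298, 279.8, 167 and 192 CPM and the 5xFAD tofacitinib mice 279, 632, 212, 221 and 134 CPM. In 5xFAD-Dp16 the values were 215, 304 and 313 CPM under sham and 270.3, 280.3, 306 and 229 CPM under tofacitinib. Carriers thus ranged from the level of wild-type mice up to the highest value of the series, and 14 of 16 lay above the median of the non-carriers. With all libraries, 1 carrier exceeded the highest non-carrier. Without the 3 libraries, 8 of 14 carriers exceeded the highest of 17 non-carriers, at 242 ± 54.1 CPM (SD, n = 14) against 179 ± 27.5 CPM (SD, n = 17).

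The order of Gfap group means ran from 5xFAD tofacitinib (296 ± 195 CPM, SD, n = 5) through 5xFAD-Dp16 sham (277 ± 54.2 CPM, SD, n = 3), 5xFAD-Dp16 tofacitinib (271 ± 32 CPM, SD, n = 4) and 5xFAD sham (234 ± 64.2 CPM, SD, n = 4). Below these came Dp16 sham (210.2 ± 22.2 CPM, SD, n = 3), wild-type tofacitinib (202 ± 105 CPM, SD, n = 5), Dp16 tofacitinib (188 ± 20.3 CPM, SD, n = 5) and wild-type sham (169 ± 24.8 CPM, SD, n = 5). The 4 groups with the transgenes held the 4 highest means, and each neighbouring pair in this order overlapped in its libraries and differed by less than 1 SD. In 5xFAD tofacitinib and in wild-type tofacitinib the highest library is 1 of those high in hippocampal markers. Those markers overlapped between carriers and non-carriers, with mean log2 levels from -0.10 to 1.57 and from -0.62 to 2.09, and 0 of 14 were called by edgeR. Their estimates for the transgenes were above 0 in 12 of 14, with a median log2 difference of 0.13 and 2 at an unadjusted p under 0.05 (20.3% of all genes), and without the 3 libraries in 8 of 14, with a median of 0.046 and 1 at that level. With their level as a term in the fit, the log2 estimate for Gfap was 0.40 against 0.49 without it.

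**Figure D2:**
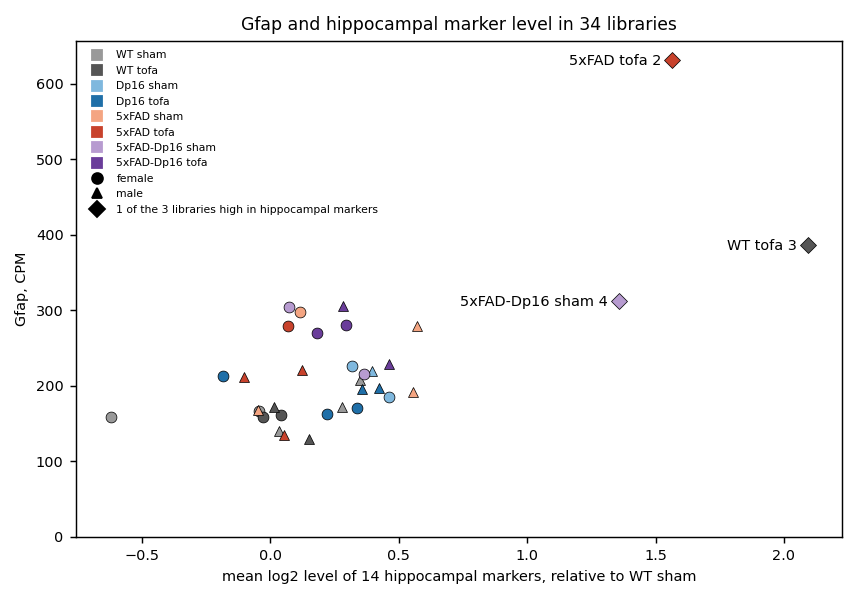
Gfap in CPM (vertical axis) against the mean log2 level of 14 hippocampal marker genes relative to wild-type sham (horizontal axis), 1 point per library, coloured by group, with circles for females, triangles for males and diamonds for the 3 libraries high in these markers. Those 3 lie at 1.36 or above on the horizontal axis with 313 to 632 CPM of Gfap, and the other 31 lie at 0.57 or below with 129 to 306 CPM.

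Read over all 10 members, the comparison of 5xFAD carriers with non-carriers had no called member in edgeR, DESeq2 or limma-voom, beside 0.42% of all genes tested called in edgeR, 2.18% in DESeq2 and 3.34% in limma-voom. At an unadjusted p under 0.05 edgeR and DESeq2 had 2 members and limma-voom 1. In edgeR these were Gfap and Serpina3n, beside 20.3% of all genes. Point estimates were above 0 for 9 of 10 members, with a median log2 difference of 0.15 against 0.0033 over all genes. Without the 3 libraries high in hippocampal markers 9 of 10 lay above 0, with a median of 0.13. Gfap had a log2 fold change of 0.49 (SE 0.15, unadjusted p = 0.00283, adjusted p = 0.109), and Serpina3n 0.39 (SE 0.17, unadjusted p = 0.0280, adjusted p = 0.196). The other 8 members had log2 fold changes from -0.22 (Lcn2) to 0.59 (Timp1), both on few reads, and among the 5 that were well counted they lay between 0.069 (Vim) and 0.22 (Cd44).

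The call for Gfap turned on single libraries. Without wild-type tofacitinib 3 its log2 fold change was 0.59 (adjusted p = 0.0389, with 0.489% of genes called), and without 5xFAD tofacitinib 2 it was 0.37 (adjusted p = 0.0739). Adding the hippocampal marker level as a term gave 0.40 (adjusted p = 0.0459, with 0.363% of genes called). Leaving out the 3 libraries high in these markers, a choice made after seeing the data, gave 0.44 (adjusted p = 0.0326), where 0.239% of 17962 genes tested were called. Serpina3n was not called under these 4 settings. With no filter on low counts both Gfap and Serpina3n were called, where the share of all genes called was 4.24%.

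**Figure D3:**
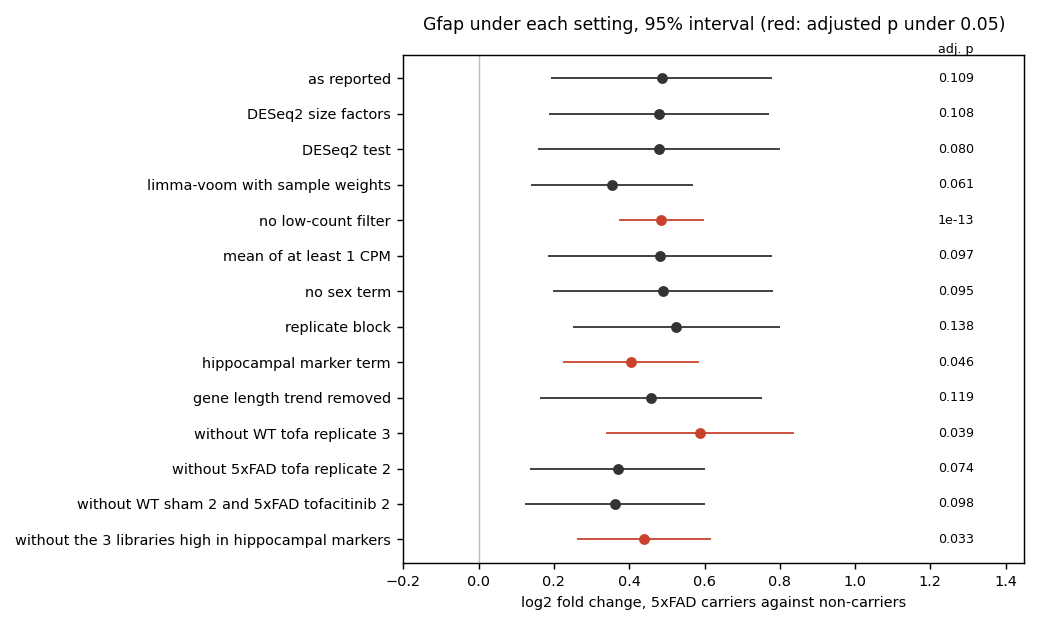
Log2 fold change of Gfap between 5xFAD carriers and non-carriers (horizontal axis, bars are 95% intervals) under each setting of the fit (vertical axis), with the adjusted p at the right and settings under 0.05 in red. The estimate runs from 0.35 to 0.59, and 4 of the 14 settings shown pass.

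In single groups the Gfap estimates were above 0 in all 6 comparisons and none passed in edgeR. Its log2 fold change was 0.48 (SE 0.29, unadjusted p = 0.104, adjusted p = 0.298) for 5xFAD against wild-type under sham, and 0.52 (SE 0.27, unadjusted p = 0.0681, adjusted p = 0.786) under tofacitinib. With single libraries left out, that estimate ran from 0.36 to 0.60 under sham and from 0.081 to 0.91 under tofacitinib. For 5xFAD-Dp16 against Dp16 it was 0.40 (SE 0.35, unadjusted p = 0.259, adjusted p = 0.717) under sham and 0.54 (SE 0.29, unadjusted p = 0.0676, adjusted p = 0.985) under tofacitinib. For 5xFAD-Dp16 against wild-type it was 0.69 (SE 0.31, unadjusted p = 0.0341, adjusted p = 0.308) under sham and 0.41 (SE 0.29, unadjusted p = 0.166, adjusted p = 0.965) under tofacitinib. In 5xFAD-Dp16 against wild-type under sham the hippocampal markers were above 0 in 13 of 14 (median log2 0.54, 6 at an unadjusted p under 0.05) and the striatal markers below 0 in 12 of 12 (median -1.22, 12 at that level), with 0 called in either list. Their part in the Gfap, Serpina3n and Osmr values of that comparison was not tested. These comparisons share control libraries, so they are not independent of each other. The last of them passed without the 3 libraries, at a log2 fold change of 0.82 (adjusted p = 0.0232, with 0.412% of genes called). Over the members, the edgeR counts at an unadjusted p under 0.05 were 2 for 5xFAD against wild-type under sham (background 24.8%), 3 for 5xFAD-Dp16 against wild-type under sham (background 14.9%), and 0 for the other 4 comparisons, where limma-voom had 0 or 1, DESeq2 0, and the edgeR background was 6.39%, 6.23%, 6.41% and 4.62% in the order 5xFAD against wild-type under tofacitinib, 5xFAD-Dp16 against Dp16 under sham, 5xFAD-Dp16 against wild-type under tofacitinib and 5xFAD-Dp16 against Dp16 under tofacitinib. Without the 3 libraries high in hippocampal markers, the edgeR count at an unadjusted p under 0.05 was 4 for 5xFAD against wild-type under sham. It was 1 for 5xFAD-Dp16 against wild-type under sham. The share of all genes at that level without the 3 libraries is not given here, so these counts cannot be set against it. With adjusted p values, 0 members were called in these 6 comparisons by edgeR and DESeq2. The share of all genes called by edgeR was 0.017% for 5xFAD against wild-type under sham and 0.017% under tofacitinib, 0.00567% for 5xFAD-Dp16 against Dp16 under either treatment, and 0.363% and 0.306% for 5xFAD-Dp16 against wild-type under sham and tofacitinib. limma-voom called 1 member, Vim, in 5xFAD against wild-type under sham.

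The estimated 5xFAD difference in Gfap was larger in females than in males, and the difference between the sexes did not pass the threshold. The 7 female carriers had 326 ± 138 CPM (SD, n = 7) and the 9 female non-carriers 178 ± 25.0 CPM (SD, n = 9). In males the values were 228 ± 61.3 CPM (SD, n = 9) in carriers and 202 ± 75.3 CPM (SD, n = 9) in non-carriers. The lowest female carrier, at 215 CPM, lay below the highest female non-carrier at 226 CPM, so the groups overlapped in both sexes. The interaction of 5xFAD and sex was 0.70 (SE 0.28, unadjusted p = 0.0197, adjusted p = 1.00) on the log2 scale, and 0 of 10 members and 0 of all genes were called by edgeR (0.0%). DESeq2 and limma-voom called 0 members. Gfap was the 1 member at an unadjusted p under 0.05 in edgeR and DESeq2, and in limma-voom that 1 member was Cp, with Gfap at 0.31 (unadjusted p = 0.188). The edgeR share of all genes at that level was 3.19%. The highest female carrier is 5xFAD tofacitinib 2, and without it the interaction was 0.42 (unadjusted p = 0.0853, adjusted p = 0.921). The highest male non-carrier is wild-type tofacitinib 3, at 387 CPM against a median of 196 CPM. Without the 3 libraries high in hippocampal markers the interaction was 0.39 (unadjusted p = 0.0427, adjusted p = 0.856).

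Vim encodes vimentin, a second intermediate filament of reactive astrocytes that vessel cells also express (chr2:13573927-13582826, plus strand). Under sham it stood at 33.1, 23.5, 33.8, 30.1 and 28.5 CPM in wild-type and at 37.5, 41.3, 37.3 and 32.6 CPM in 5xFAD, with 1 of 4 5xFAD libraries inside the wild-type range. Under tofacitinib, wild-type mice had 30.9, 36.5, 44.9, 42.8 and 30.2 CPM and 5xFAD mice 41.6, 43.2, 31.5, 28.3 and 32.7 CPM, and these ranges overlapped. The log2 fold change of 5xFAD against wild-type was 0.32 (SE 0.13, unadjusted p = 0.0172, adjusted p = 0.120) under sham, and limma-voom with sample weights gave an adjusted p of 0.0437, where it called 15.9% of all genes. Tofacitinib against sham in wild-type was 0.31 (SE 0.12, unadjusted p = 0.0138, adjusted p = 0.664). Wild-type sham was the lowest Vim group at 29.8 ± 4.13 CPM (SD, n = 5), and it includes the lowest library of the series, wild-type sham 2 at 23.5 CPM. That library lay below the wild-type sham mean in 10 of 10 members.

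Serpina3n encodes a secreted serine protease inhibitor that is a strong marker of reactive astrocytes (chr12:104406729-104414329, plus strand). Wild-type sham had 9.26, 4.58, 10.9, 5.40 and 10.3 CPM and wild-type tofacitinib 7.0, 10.6, 23.1, 13.6 and 8.56 CPM. Its levels were 11.5, 16.4, 10.3 and 9.10 CPM in 5xFAD sham, 9.07, 27.0, 11.5, 8.92 and 10.8 CPM in 5xFAD tofacitinib, 8.0, 15.2 and 16.9 CPM in 5xFAD-Dp16 sham and 8.91, 12.5, 13.2 and 13.3 CPM in 5xFAD-Dp16 tofacitinib. The 3 libraries high in hippocampal markers held the 3 highest Serpina3n values. Without them carriers averaged 11.3 ± 2.54 CPM (SD, n = 14) and non-carriers 9.02 ± 2.42 CPM (SD, n = 17), and 2 of 14 carriers exceeded the highest non-carrier. Against wild-type under sham, 5xFAD-Dp16 had a log2 fold change of 0.73 (SE 0.35, unadjusted p = 0.0457, adjusted p = 0.329). Close copies of this gene on chromosome 12 took few reads: Serpina3g had 54 counts summed over 34 libraries, Serpina3c 29 and Serpina3h 18, and Serpina3i, Serpina3j and Serpina3k had 0.

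Among the other secreted members, Cp, which encodes the copper-carrying iron oxidase ceruloplasmin (chr3:19957054-20009145, plus strand), had 14.6 ± 3.12 CPM (SD, n = 16) in carriers and 13.3 ± 1.74 CPM (SD, n = 18) in non-carriers, a log2 fold change of 0.10 (SE 0.086, unadjusted p = 0.237, adjusted p = 0.515). Its highest library was 5xFAD tofacitinib 2 at 22.4 CPM, beside the raised choroid plexus markers of that library. Timp1, an inhibitor of matrix metalloproteinases (chrX:20870166-20874735, plus strand), was highest in the same library, at 16 counts. Its other libraries ran from 0 to 13 counts, and the log2 fold change for the 5xFAD transgenes was 0.59 (SE 0.57, unadjusted p = 0.310, adjusted p = 0.588), with a 95% interval from -0.53 to 1.71.

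Lcn2, which encodes lipocalin 2, a secreted carrier of iron-binding siderophores that neutrophils also make (chr2:32384633-32388252, minus strand), had a higher estimate with Dp16 that did not pass the threshold. Its counts were 0, 0, 6, 4 and 6 in wild-type sham, 3, 0, 5, 0 and 0 in wild-type tofacitinib, 1, 1, 1 and 0 in 5xFAD sham and 0, 16, 7, 0 and 2 in 5xFAD tofacitinib. With Dp16 they were 13, 6 and 0 under sham and 5, 2, 8, 9 and 4 under tofacitinib, and in 5xFAD-Dp16 15, 2 and 1 under sham and 3, 10, 14 and 1 under tofacitinib. Of 15 Dp16 carriers 1 had 0 counts, against 8 of 19 mice without Dp16, and the ranges overlapped. The log2 fold change of Dp16 carriers against non-carriers was 1.40 (SE 0.62, unadjusted p = 0.0314, adjusted p = 0.298). The 5xFAD-Dp16 sham mouse with 15 counts had the highest neutrophil and monocyte markers of the series (mean log2 3.84 relative to wild-type sham, 20.3 CPM summed over 10 genes), and the Dp16 sham mouse with 13 counts had choroid plexus markers at 2.79. 5xFAD tofacitinib 2, with 16 counts, had the neutrophil genes S100a8 and S100a9 at 0.045 and 0.32 CPM, and choroid plexus markers at 3.30. The mouse with 14 counts belongs to 5xFAD-Dp16 tofacitinib, where the neutrophil and monocyte markers reached at most 0.38. The part of these markers in the Lcn2 counts was not tested.

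The receptor Osmr, which binds oncostatin M together with gp130 (chr15:6813577-6874969, minus strand), was lowest in wild-type sham at 1.90, 1.78, 5.03, 3.48 and 2.43 CPM. The group means of the 7 other groups lay between 4.2 and 4.76 CPM. Its 5xFAD-Dp16 sham values were 3.11, 6.23 and 4.84 CPM, a log2 fold change of 0.67 (SE 0.32, unadjusted p = 0.0473, adjusted p = 0.332) against wild-type sham, and the groups overlapped. Over all libraries the 5xFAD difference was 0.16 and the Dp16 difference 0.25 on the log2 scale (adjusted p = 0.587 and 0.514).

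S1pr3, a receptor for the lipid sphingosine 1-phosphate (chr13:51408639-51422797, plus strand), was highest in 5xFAD sham, at 9.76, 11.3, 9.40 and 9.24 CPM. Wild-type sham had 5.11, 6.55, 8.76, 8.41 and 8.98 CPM, and 5xFAD tofacitinib 9.02, 5.47, 7.26, 7.32 and 7.80 CPM, so each of the 4 5xFAD sham values lay above each of the 5 5xFAD tofacitinib values. The share of all genes whose values separate in this way was not counted. The log2 fold change of tofacitinib against sham in 5xFAD was -0.42 (SE 0.19, unadjusted p = 0.0319, adjusted p = 0.323). In that comparison 14.8% of all genes reached an unadjusted p under 0.05 and 0.0% were called. The difference between the 5xFAD effect under tofacitinib and under sham was -0.50 (SE 0.20, unadjusted p = 0.0179, adjusted p = 0.331), in a comparison with 14.5% of all genes at an unadjusted p under 0.05 and 0.0% called. limma-voom with sample weights called it, among 21.4% of all genes (adjusted p = 0.0379), and edgeR and DESeq2 did not. The lowest of the 5xFAD tofacitinib values belongs to the library low in cortical markers.

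Cd44, the surface receptor for hyaluronan (chr2:102811141-102901665, minus strand), was highest in 2 of the 3 libraries high in hippocampal markers, 5xFAD tofacitinib 2 at 5.34 CPM and 5xFAD-Dp16 sham 4 at 4.23 CPM. Over all mice it stood at 3.00 ± 1.04 CPM (SD, n = 16) in carriers and 2.61 ± 0.705 CPM (SD, n = 18) in non-carriers (log2 fold change 0.22, adjusted p = 0.456), and without the 3 libraries at 2.74 ± 0.792 CPM (SD, n = 14) and 2.58 ± 0.718 CPM (SD, n = 17). Steap4, a membrane metalloreductase for iron and copper (chr5:7960457-7982213, plus strand), also had a higher estimate with Dp16. Its counts were 3, 4, 2, 6 and 5 in wild-type tofacitinib and 13, 14, 2, 11 and 9 in Dp16 tofacitinib, which overlapped in 1 Dp16 library. Wild-type sham had 0, 0, 5, 11 and 8 counts and Dp16 sham 8, 8 and 9 counts. The log2 fold change for Dp16 was 0.82 (SE 0.38, unadjusted p = 0.0355, adjusted p = 0.316) over all groups and 1.40 (SE 0.67, unadjusted p = 0.0454, adjusted p = 0.580) for Dp16 against wild-type under tofacitinib.

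Across the members, Dp16 carriers against non-carriers gave 0 called by edgeR, DESeq2 and limma-voom, beside 2.14% of all genes in edgeR. Steap4 and Lcn2 were the 2 at an unadjusted p under 0.05 in edgeR (background 13.7%). DESeq2 had the same 2, with 2528 of 17632 genes at that level, and limma-voom had these and Gfap and Osmr, with 4607 of 17632 genes. Point estimates were above 0 for 5 of 10 members, with a median log2 difference of 0.0028 against 0.0044 over all genes. Without the 3 libraries high in hippocampal markers 7 of 10 lay above 0, with a median of 0.18. Gfap differed by 0.061 (95% interval -0.24 to 0.36), Vim by -0.065 and Serpina3n by -0.055, the last turning to 0.11 without the 3 libraries. With single libraries left out, the Gfap estimate for Dp16 ran from 0.011 to 0.21. The difference between the 5xFAD effect on Gfap with and without Dp16 was -0.028 (95% interval -0.62 to 0.56, edgeR adjusted p = 0.998), and 0 of 10 members were called or reached an unadjusted p under 0.05 in edgeR, DESeq2 or limma-voom (background 0.00567% and 4.35%). Dp16 against wild-type gave 0 members called by the same 3 tests (background 0.21% under sham and 0.25% under tofacitinib). At an unadjusted p under 0.05 limma-voom had 1 under sham and DESeq2 0, and in edgeR there were 0 under sham (background 7.27%) and 2 under tofacitinib, Steap4 and Vim (background 8.5%). Vim was lower there, at 32.3, 30.7, 28.3, 30.6 and 32.5 CPM in Dp16 against the wild-type values above, a log2 fold change of -0.27 (SE 0.12, unadjusted p = 0.0356, adjusted p = 0.561).

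**Figure D4:**
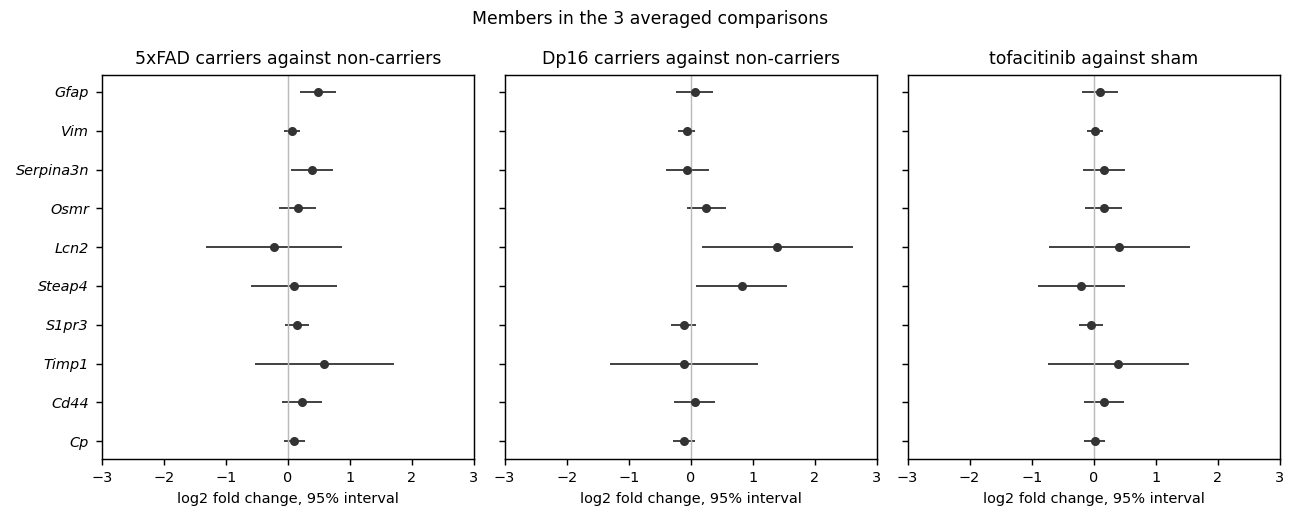
Log2 fold change of each member (points, with 95% intervals) for 5xFAD carriers against non-carriers, Dp16 carriers against non-carriers and tofacitinib against sham; the horizontal axes are shared. The intervals of Gfap and Serpina3n for 5xFAD, and of Lcn2 and Steap4 for Dp16, leave out 0, and those of Lcn2, Steap4 and Timp1 are the widest.

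Tofacitinib against sham, averaged over the 4 genotypes, moved none of the 10 members past the threshold in edgeR, DESeq2 or limma-voom, and none reached an unadjusted p under 0.05 in any of the 3. Of all genes, 0.0% were called by edgeR and 3.36% reached an unadjusted p under 0.05. Gfap differed by 0.10 on the log2 scale with a 95% interval from -0.20 to 0.39, and without the 3 libraries the estimate was -0.08. Serpina3n differed by 0.16 (interval -0.17 to 0.50) and Osmr by 0.16 (interval -0.14 to 0.46). For the sparse members the intervals were wide, from -0.73 to 1.56 for Lcn2 and from -0.90 to 0.50 for Steap4. The difference in the 5xFAD effect on Gfap between tofacitinib and sham was 0.089 (interval -0.50 to 0.68). Within single genotypes 0 members were called by the 3 tests, with 0.0% of all genes called by edgeR in each. Members at an unadjusted p under 0.05 in edgeR numbered 1 in wild-type (Vim, background 7.3%), 1 in 5xFAD (S1pr3, background 14.8%), and 0 in Dp16, where limma-voom had 1 and DESeq2 0, and 0 in 5xFAD-Dp16 by each of the 3 (background 2.05% and 1.92%).

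In mice with the transgenes, Gfap was higher where the plaque program of microglia was higher. That program was measured as the mean log2 CPM of 16 genes, of which 8 were called higher in 5xFAD carriers, among them Cst7, a cystatin of plaque microglia, at 42.8-fold and Clec7a, a pattern receptor, at 5.88-fold (adjusted p = 1.35e-06 and 4.30e-05). Among the 16 carriers, Pearson's r between Gfap in log2 CPM and this level was 0.79 (permutation p = 1.80e-04, adjusted over 7 members 0.00126), and Spearman's rho was 0.60 (permutation p = 0.0150, adjusted 0.105). By rank the relation therefore did not pass the correction. Without the 2 carriers farthest from the median microglial level r was 0.72. Without the 2 carriers high in hippocampal markers r was 0.75 (permutation p = 0.00212, adjusted 0.0148) and rho 0.62 (permutation p = 0.0214, adjusted 0.150). By rank the relation did not pass the correction there either. With the 2 farthest of these 14 carriers also left out, r was 0.61. Within the 7 female carriers r was 0.87 and rho 0.68 (exact permutation p = 0.0306 and 0.11), and within the 9 male carriers r was 0.61 and rho 0.48 (exact permutation p = 0.0840 and 0.194).

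The 18 non-carriers covered a narrower microglial range, 2.64 to 3.18 against 3.02 to 4.66 in carriers. Of these, Dp16 mice lay between 2.92 and 3.18 and wild-type mice between 2.64 and 3.15. The part of Dp16 status in the relations that follow was not tested. Over the 18 non-carriers Gfap had r = 0.58 (permutation p = 0.00868, adjusted 0.0304) and rho = 0.62 (permutation p = 0.00684, adjusted 0.0239), and r without the 2 farthest was 0.61. Without wild-type tofacitinib 3 the adjusted permutation p of r was 0.0525 and r was 0.58. S1pr3 ran the other way in these mice, with r = -0.70 (permutation p = 0.00130, adjusted 0.00910), rho = -0.68 (permutation p = 0.00250, adjusted 0.0175) and r = -0.57 without the 2 farthest. In carriers S1pr3 had r = -0.16 and rho = 0.10 (permutation p = 0.568 and 0.716). For Serpina3n in carriers r was 0.50 and rho 0.31 (permutation p = 0.0487, adjusted 0.114, and 0.234), and without the 2 libraries high in hippocampal markers r was 0.30. These relations were computed after the data had been seen, on the 7 members with counts in every library, separately in carriers and non-carriers. The permutations took no account of Dp16 status or treatment, and those over both sexes took none of sex.

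**Figure D5:**
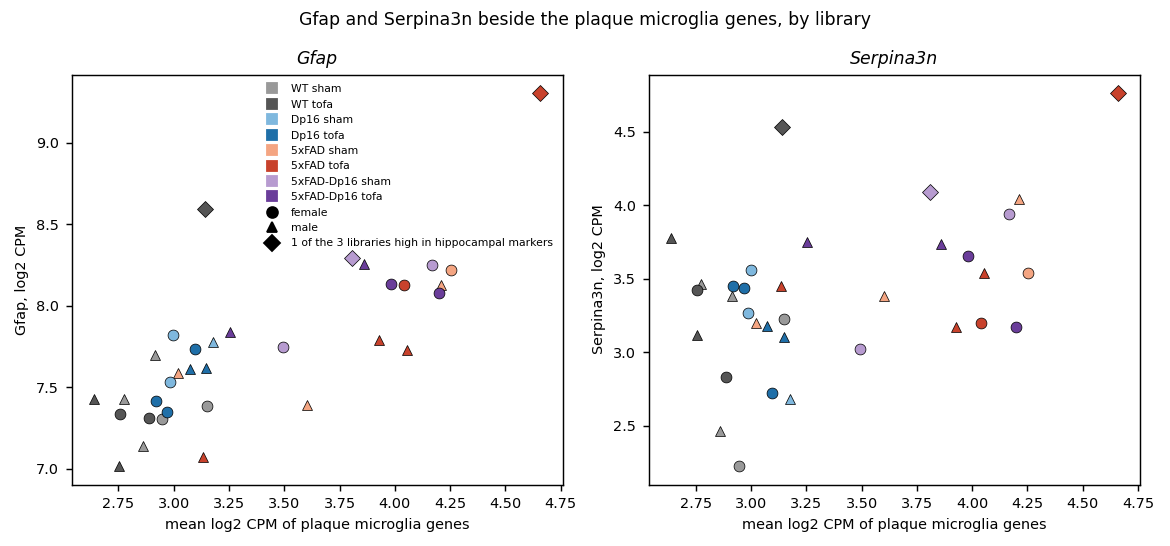
Gfap (left) and Serpina3n (right) in log2 CPM against the mean log2 CPM of 16 plaque microglia genes, 1 point per library, coloured by group, with circles for females, triangles for males and diamonds for the 3 libraries high in hippocampal markers. Non-carriers lie between 2.64 and 3.18 on the horizontal axis and carriers between 3.02 and 4.66, and the carrier highest in microglial level, 5xFAD tofacitinib 2, is also the highest in Gfap and Serpina3n.

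None of the other astrocyte genes listed was called with the 5xFAD transgenes. Of 16 homeostatic astrocyte genes, 10 had an estimate above 0 and 0 were called by edgeR, with a median log2 difference of 0.027 and 4 at an unadjusted p under 0.05. Of 38 further reactive astrocyte genes, 32 were tested, 22 lay above 0 and 0 were called (median 0.10), with 11 at an unadjusted p under 0.05. Beside these 2 lists, 20.3% of all genes reached that level and 0.42% were called. C4b, a complement component, was the 1 among the further reactive genes that was called without the 3 libraries, at 1.61-fold (adjusted p = 0.0490), and it had log2 0.65, SE 0.16, adjusted p = 0.0612 with them. With Dp16, 19 of the 32 further reactive genes lay above 0 (median log2 0.079), and 8 of the 16 homeostatic genes (median 0.0024). In each list 1 gene was called by edgeR, beside 2.14% of all genes. Clu, the chaperone clusterin, was lower at 0.852-fold (adjusted p = 0.00296) and Fgfr3, a growth factor receptor of astrocytes, at 0.826-fold (adjusted p = 0.0042). Without the 3 libraries high in hippocampal markers Psmb8, of the further reactive list, was also called, higher at 1.41-fold (adjusted p = 0.0257). Striatal markers had estimates below 0 in Dp16 carriers for 12 of 12 genes, with 1 called (Six3), 11 at an unadjusted p under 0.05 (13.7% of all genes) and a median log2 difference of -0.59, and their part in these Dp16 results was not tested.

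Genes that work with the members gave 3 calls over the 5xFAD, Dp16 and tofacitinib averages, where 0.42%, 2.14% and 0.0% of all genes were called. Of 21 genes of the interleukin 6 family and STAT3 pathway, 19 were tested, 16 lay above 0 in 5xFAD carriers and 0 were called, with 5 at an unadjusted p under 0.05 beside 20.3% of all genes. Stat3 itself, the transcription factor, had log2 0.20, SE 0.066, adjusted p = 0.127, and the most abundant genes of the list per kilobase, Junb, Cntfr and Jak1, had log2 differences of 0.22, 0.033 and 0.10. Tofacitinib left 0 of the 19 called and 0 at an unadjusted p under 0.05, beside 0.0% and 3.36% of all genes. Among 6 other intermediate filament and linker genes (Lmna, Plec and Synm the most abundant) 0 were called, 4 lay above 0 and Plec had log2 0.24, SE 0.10, adjusted p = 0.180. Of 10 sphingosine phosphate genes 4 lay above 0 and 0 were called, and the main receptor S1pr1 had log2 -0.065, SE 0.045, adjusted p = 0.428. Of 10 tested metalloproteinases and inhibitors 8 lay above 0 and 0 were called; Timp2, the most abundant, had log2 0.14, SE 0.069, adjusted p = 0.244. Tnc, the matrix glycoprotein tenascin C and 1 of 15 genes of the CD44 and matrix list, was called higher in 5xFAD carriers at 1.55-fold (adjusted p = 0.0416) and lower in Dp16 carriers at 0.581-fold (adjusted p = 0.00208). Without the 3 libraries high in hippocampal markers the 5xFAD call of Tnc was lost, and the Dp16 call was kept at 0.596-fold (adjusted p = 0.00924). In the iron list, 15 genes were tested and the ferritin genes Fth1 and Ftl1 had -0.16 and -0.11 with 5xFAD, and Lrp2, a receptor that takes up lipocalins, was called higher in Dp16 carriers at 4.54-fold on 171 counts in all.

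The genes whose levels most resembled those of Gfap over the 34 libraries were Amigo2, Slc14a1, Cd84 and Ctsd. Likeness was the root mean square difference in log2 CPM after each gene was centred on its wild-type sham mean, and it was 0.29 for Amigo2, an adhesion protein, 0.33 for Slc14a1, a urea transporter, 0.33 for Cd84, an immune cell receptor, and 0.36 for Ctsd, the lysosomal protease cathepsin D. A flat line would score 0.59 against Gfap, and 3858 of 17619 genes came closer than that. For Serpina3n the nearest were Cachd1 at 0.26, Slc14a1 at 0.36, Amigo2 at 0.38 and Grin2d at 0.38, against 0.68 for a flat line. Slc14a1 and Amigo2 stood in both lists. These genes were measured in the same libraries, the 3 high in hippocampal markers included.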

How the data were processed

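Poly-A RNA of mouse cortex was read as paired 150-base ends from a strand-specific kit, per the labels' protocols. The deposited table holds whole-number counts per gene made by the authors with tools listed in the submitters' processing notes (HISAT2 2.1.0, SAMtools 1.5, HTSeq 0.6.1, build GRCm38); how strand was set in counting is not given in the sources used here. The deposited RPKM values were recomputed from the counts and matched within a relative difference of 7.11e-14; they gave the levels per length. Positions come from GENCODE mouse release 21 and promoters from RefSeq.

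Differences came from edgeR 4.0.16 under R 4.3.3, run on the counts as deposited (17632 genes kept by filterByExpr, TMM, 1 quasi-likelihood fit of 34 libraries with group and sex, Benjamini-Hochberg adjustment, threshold 0.05, two-sided). The 18 comparisons were genotypes within treatments, treatments within genotypes, their averages and interactions. SE is the log2 fold change divided by the root of F, and intervals are 1.96 SE. CPM uses TMM-scaled totals. The p-value of a difference sets that difference against the spread between these samples. Alternatives used DESeq2 1.42.0 and limma 3.58.1. Relations used 100000 permutations, two-sided. The fitting scripts were tested on simulated data. Of 24 gene lists, 1 gene had no row. The 10 members are all named; other list genes are named when called, or as the up to 3 most abundant of a partner list, with Stat3 named as well after its value was seen. The members and lists were chosen with earlier results of these data known.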

Additional observations from a re-analysis of the deposited data

Results flagged for a closer look

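A library was looked at again where its gap to the nearest of its group, as a share of the group's range, was above Dixon's 95% value. Of 60 sets of member and group with 4 or 5 libraries, 2 met this, and chance alone flags about 1 in 20. Gfap in wild-type tofacitinib 3 stood at 387 CPM, with the next library of the group at 172 and the lowest at 129 CPM. Serpina3n in 5xFAD tofacitinib 2 stood at 27.0 CPM, with the next at 11.5 and the lowest at 8.92 CPM. Both libraries are among the 3 high in hippocampal markers. The part of tissue makeup in these values was not tested.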

How the results depend on the processing

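In edgeR as reported, 0 members were called in each of the 18 comparisons. Of 209 recounts of members under other settings 196 were the same. The 5xFAD average had 2 with no low-count filter (Gfap and Serpina3n), 1 with the hippocampal marker term and 1 without the 3 libraries high in hippocampal markers. Without a filter 32026 genes were tested, and the 5xFAD average had 422 called higher and 936 lower. In that fit 2 members were called for 5xFAD against wild-type under sham (all genes 572 higher, 1212 lower) and 2 for 5xFAD-Dp16 against wild-type under sham (328 and 545). Under tofacitinib it called 1 each for 5xFAD against wild-type (59 and 17), 5xFAD-Dp16 against wild-type (121 and 32) and 5xFAD-Dp16 against Dp16 (82 and 29), and for 5xFAD by sex 1 (11 and 4). limma-voom called 1 member in 5xFAD by tofacitinib and 1 in 5xFAD against wild-type under sham. 5xFAD-Dp16 against wild-type under sham gave 1 when fitted on its own groups. The share of all genes called in that fit is not given here, so the 1 cannot be set against it. Under tofacitinib the same genotypes gave 1 without the 3 libraries, with 0.412% of genes called. Leaving out single libraries gave between 0 and 1 members for the 5xFAD average, the 1 being Gfap without wild-type tofacitinib 3, and changed no other count.

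Of 421 refits of 38 log2 fold changes, 14 turned in sign and none of those 14 was called. With limma-voom the values were 0.030 for Lcn2 and -0.013 for Cp in the 5xFAD average, 0.089 for Serpina3n in the Dp16 average, -0.11 for Gfap in the tofacitinib average, -0.015 for Gfap in 5xFAD by tofacitinib and 0.21 for Gfap in 5xFAD by Dp16. Without wild-type sham 2 and 5xFAD tofacitinib 2 they were 0.060 for Serpina3n in the Dp16 average, -0.029 for Gfap in the tofacitinib average, -0.12 for Gfap in 5xFAD by tofacitinib and 0.21 for Gfap in 5xFAD by Dp16. Without the 3 libraries they were 0.11 for Serpina3n in the Dp16 average and, in the tofacitinib average, -0.080 for Gfap and -0.27 for Lcn2. With the replicate block Steap4 was -0.064 in the 5xFAD average. Single libraries left out gave ranges of 0.37 to 0.59 for Gfap, -0.67 to 0.045 for Lcn2 and -0.016 to 0.22 for Steap4 in the 5xFAD average, -0.12 to 0.11 for Serpina3n in the Dp16 average, -0.023 to 0.14 for Gfap in the tofacitinib average, -0.12 to 0.28 for Gfap in 5xFAD by tofacitinib and -0.22 to 0.19 for Gfap in 5xFAD by Dp16. The cause of these changes was not tested.

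Replicate numbers did not pair the samples: over 98 same-numbered pairs the mean correlation of deviations was -0.044 and 2 of 34 libraries correlated best with their own number. With the replicate block 0 members were called in the 18 comparisons, the adjusted p of Gfap in the 5xFAD average was 0.138, and the genes called there were 13 higher and 4 lower, against 34 and 40 without the block. Lcn2, Timp1 and Steap4 rest on at most 16 counts in a library, and their intervals are the widest.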
